A study of Mus musculus with 4 samples.

Results

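The genes described here were 8 Schwann cell and myelin genes, chosen by their symbols from the 33696 genes listed in each library: Sox10 (ENSMUSG00000033006), Mbp (ENSMUSG00000041607), Pmp22 (ENSMUSG00000018217), Prx (ENSMUSG00000053198), S100b (ENSMUSG00000033208), Cdh19 (ENSMUSG00000047216), Scn7a (ENSMUSG00000034810) and Ncam1 (ENSMUSG00000039542). They were followed in 4 scRNA-Seq libraries of mouse P3 digit, the terminal phalanx whose tip can grow back after amputation. The study asked how loss of lymphatic vessels or lymph nodes alters that regrowth. All mice were C57BL/6 (C57BL/6J in the study's methods) females aged 6 to 8 weeks with amputated P3 digits, and each library pooled the digits of 10 mice, so that 1 library stood for each condition and no difference between conditions had a replicate check. The SAR131675 library came from mice given chow with SAR131675, an inhibitor of the lymphatic growth factor receptor VEGFR3, at 30 mg/kg, and the control diet library from mice on chow without it. The series' design text gives 8 days of diet, while the methods start the chow before amputation and keep it up throughout, and the sources differ on the day of collection, so the whole exposure is not settled here. The LNR library came from limbs whose inguinal and popliteal lymph nodes had been removed. The sham library is labelled as having had no treatment, while the study's results describe the limb of the other side as the sham. Whether the LNR and sham libraries thus came from the same mice is not settled here. The labels put each library in a batch of its own, so batch and condition cannot be told apart. A cut through the P3 digit severs its nerves together with bone, vessels and nail. Every library, controls included, came from mice with cut digits. By the study's methods, digits were harvested from within the phalanx proximal to P3, and the digits named as harvested include a digit not named as amputated. Each library can thus also hold tissue from proximal to the cut or from uncut digits.

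Schwann cells are the glia of peripheral nerves. A myelinating Schwann cell wraps 1 large axon in compact myelin, whereas a non-myelinating (Remak) Schwann cell holds many thin axons without myelin. After nerve injury both kinds can leave these states and act as repair cells, and in the digit tip Schwann cells are a known source of growth factors for regrowth. Sox10 is the transcription factor that specifies and maintains the lineage, and it is also used by melanocytes and by the secretory and contractile cells of sweat glands. Mbp (myelin basic protein) and Pmp22 (peripheral myelin protein) build the compact sheath, and Prx (periaxin) anchors the sheath to the basal lamina through Drp2. S100b is a calcium-binding protein of glia that is also used by cartilage. Cdh19 is a cadherin of the Schwann lineage, Scn7a encodes the sodium-sensing channel Nax, and Ncam1 is an adhesion molecule found on non-myelinating Schwann cells and on several mesenchymal and immune cells. The Mbp locus also gives Golli transcripts in immune cells, and Pmp22 has alternative first exons, so a count per gene pools these products.

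Promoter sequence is shown for 1 gene of each expression pattern found below: Prx, highest in myelinating-like Schwann cells; Scn7a, highest in non-myelinating-like Schwann cells; and S100b, shared with other cell classes. RefSeq promoters on the GRCm38.p6 build were at hand for 4 of the 8 genes (Pmp22, Prx, S100b and Scn7a). Each run holds the 250 bases before the annotated start, written 5′ to 3′ on the strand of the gene, at chr7:27499074-27499323 (plus strand) for Prx, chr2:66784911-66785160 (minus strand) for Scn7a and chr10:76253586-76253835 (plus strand) for S100b. Capitals mark matches on either strand to AACAAT or AACAAA, a core of the kind bound by SOX proteins.
Prx: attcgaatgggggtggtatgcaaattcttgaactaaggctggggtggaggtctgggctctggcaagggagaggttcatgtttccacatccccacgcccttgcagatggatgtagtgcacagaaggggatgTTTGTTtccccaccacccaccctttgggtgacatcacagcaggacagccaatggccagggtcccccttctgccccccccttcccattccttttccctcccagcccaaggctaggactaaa
Scn7a: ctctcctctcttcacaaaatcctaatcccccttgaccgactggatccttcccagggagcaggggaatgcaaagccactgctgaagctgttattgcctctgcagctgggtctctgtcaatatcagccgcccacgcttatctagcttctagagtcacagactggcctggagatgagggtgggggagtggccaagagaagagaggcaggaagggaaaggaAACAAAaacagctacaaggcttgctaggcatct
S100b: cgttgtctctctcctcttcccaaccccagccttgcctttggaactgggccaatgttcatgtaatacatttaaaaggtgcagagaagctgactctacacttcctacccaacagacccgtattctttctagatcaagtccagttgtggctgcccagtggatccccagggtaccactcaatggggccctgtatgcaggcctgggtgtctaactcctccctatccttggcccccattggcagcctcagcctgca
Prx held 1 match, on the opposite strand at position -120 from the start, and Scn7a held 1 at position -33, while the S100b window held none. None of the 4 Pmp22 windows, which are not printed, held a match either. Of 32851 mouse promoter windows of the same length, 24.9% held at least 1 match, so a match is common and no site is implied by it. In the 3 windows shown, TATAAA was found on neither strand, and GGGCGG was found once, on the opposite strand in Scn7a at position -126. On either strand, TATAAA was held by 12.4% of all windows and GGGCGG by 32.7%.

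The libraries held 21669 to 38464 barcodes and 168507188 to 585284877 UMIs, and 19827 to 29076 cells per library were kept by the study's limits. Median UMIs per kept cell were 11316 and 10712 in the SAR131675 and control diet libraries and 5725 and 5851 in the LNR and sham libraries. Because depth and the software version in the file headers differed between these pairs, the pairs were clustered apart, and levels were compared only within a pair. SAR131675 and control diet shared 348 barcodes (210 among kept cells) and LNR and sham 130 (101 kept); none of the shared kept barcodes was a Schwann-like cell. All intervals given are 95% intervals that cover counting error only.

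Schwann-like cells were named from 8 fixed markers, Mal, Cnp and Erbb3 among them, with the 8 genes kept out of both the clustering and the naming. They numbered 260 of 29076 cells in SAR131675, or 0.894% (exact binomial interval 0.789 to 1.01). The share was 0.678% in control diet (163 of 24030 cells, interval 0.578 to 0.790), 0.525% in LNR (104 of 19827, interval 0.429 to 0.635) and 0.556% in sham (115 of 20669, interval 0.460 to 0.667). Mal, a proteolipid of compact myelin and other membranes, stood at 1193, 1120, 1529 and 1653 CPM (UMIs scaled to 1000000 UMIs of the class) in the Schwann-like cells of SAR131675, control diet, LNR and sham, against 0.704 to 1.63 CPM in keratinocyte-like cells. Since Mal was used to name the cells, its level describes the naming and is no check of it. Median UMIs per Schwann-like cell were 4412.5, 4283, 1299.5 and 1278 in the same order. Summed markers of other cell types in the Schwann-like cells were 815 to 1446 CPM for keratinocytes, 2922 to 3753 CPM for fibroblasts, 0 to 50.3 CPM for macrophages and 0 to 7.27 CPM for neurons. Erythroid markers stood at 2088, 5796, 155 and 81.7 CPM, chondrocyte markers at 131.6, 67.3, 68.4 and 25.1 CPM and melanocyte markers at 57.3, 11.9, 12.4 and 18.9 CPM in SAR131675, control diet, LNR and sham. These sums differed between the libraries of a pair, and, except where values are given below, their part in the results was not tested.

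Sox10 marked the Schwann-like cells in every library. Its level there was 278 CPM (exact Poisson interval 249 to 309) in SAR131675, 309 CPM in control diet, 330 CPM in LNR and 377 CPM in sham. Sweat gland-like cells came next among larger classes, at 68.0, 72.5, 91.0 and 68.9 CPM, below the Schwann-like interval each time. Melanocyte-like cells, of which only 11, 10 and 14 were found in control diet, LNR and sham, held 227, 72.6 and 76.7 CPM. In control diet their interval (151 to 329) overlapped that of the Schwann-like cells, so these neighbours in the order of Sox10 levels did not differ there beyond counting error. An unnamed diet-pair group led by the contractile genes Cnn1, Acta2 and Myh11 (30 and 27 cells) held Sox10 at 143 CPM in SAR131675 and 135 CPM in control diet, with Cdh19 and Scn7a at 0 UMIs.

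The sheath genes Mbp, Pmp22 and Prx were highest in Schwann-like cells, and every other named class of at least 10 cells (18 or 19 per library) lay below the Schwann-like interval in all 4 libraries. Mbp stood at 3103, 3583, 3992 and 4186 CPM in the Schwann-like cells of SAR131675, control diet, LNR and sham. The next classes were monocyte-like, at 205, 224, 63.9 and 58.2 CPM, and NK/T-like, at 144, 186, 94.5 and 56.2 CPM. Both are blood-derived classes, and their Mbp could not be split into myelin and Golli forms.

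Pmp22 stood at 9244, 9167, 8188 and 8448 CPM in Schwann-like cells. Macrophage-like cells were next in each library, at 564 to 749 CPM, which left a gap of 12.2- to 15.0-fold. Fibroblast-like cells followed in SAR131675 and control diet (571 and 640 CPM), and tenocyte-like cells in LNR and sham (572 and 533 CPM). Prx stood at 665, 825, 597 and 629 CPM. No other class passed 14.6 CPM of Prx, and the Schwann-like level was 56.4 to 92.0 times that of the class next in order. In SAR131675 that class was mural-like, at 11.5 CPM (interval 8.73 to 14.9). In control diet, LNR and sham its level rested on few UMIs. Prx thus had the widest gap of the sheath genes in every library but not a total absence elsewhere.

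Cdh19 and Scn7a were also highest in Schwann-like cells, with no overlap with any other class in any library. Cdh19 stood at 1083 CPM (interval 1026 to 1142) in SAR131675, 957 CPM in control diet, 311 CPM in LNR and 371 CPM in sham. The only other class above 6.50 CPM was melanocyte-like, at 56.8 CPM in control diet and 19.2 CPM in sham, and 9 to 13 classes held no Cdh19 UMI. Scn7a stood at 1450, 1225, 802 and 654 CPM. Fibroblast-like cells were next for Scn7a, at 62.6, 64.5, 47.1 and 47.4 CPM, a gap of 13.8- to 23.2-fold. Among the diet-pair fibroblast-like clusters, one led by Dkk2, Crabp1 and Ccbe1 held 110 and 114 CPM of Scn7a in SAR131675 and control diet, and one led by Myoc, Clec3b and Pi16 held 73.9 and 70.7 CPM.

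S100b and Ncam1 were not highest in Schwann-like cells. S100b stood at 241, 271, 479 and 515 CPM there, rank 3 of the classes in every library. Sweat gland-like cells held 374, 440, 594 and 798 CPM, and chondrocyte-like cells 292, 352, 549 and 579 CPM. The interval of the Schwann-like cells overlapped that of chondrocyte-like cells in 3 of the 4 libraries, all but control diet, and that of sweat gland-like cells only in LNR, so the order of these 3 classes was not settled in every library. In the node pair, 1 sweat gland-like group led by Fxyd2, Tesc and Krt19 (27 and 42 cells, median 884 and 996 UMIs) held 1587 CPM of S100b in the LNR library and 1550 CPM in the sham library.

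Ncam1 stood at 276, 257, 99.5 and 75.4 CPM in Schwann-like cells, from 342, 195, 16 and 12 UMIs. Osteoblast-like cells held more, at 341, 518, 172 and 232 CPM, and their interval lay wholly above that of the Schwann-like cells in control diet and sham but overlapped it in SAR131675 and LNR. Schwann-like cells ranked 2, 2, 4 and 3 among the classes for Ncam1. Mast-like cells of LNR and sham held 103 to 114 CPM, with intervals that overlapped those of the Schwann-like cells. Fibroblast-like subclusters of the diet pair led by Lrrc15, Tnn and Col11a1 held 516 to 646 CPM. The plot of levels by class shows these patterns side by side.

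**Figure D1:**
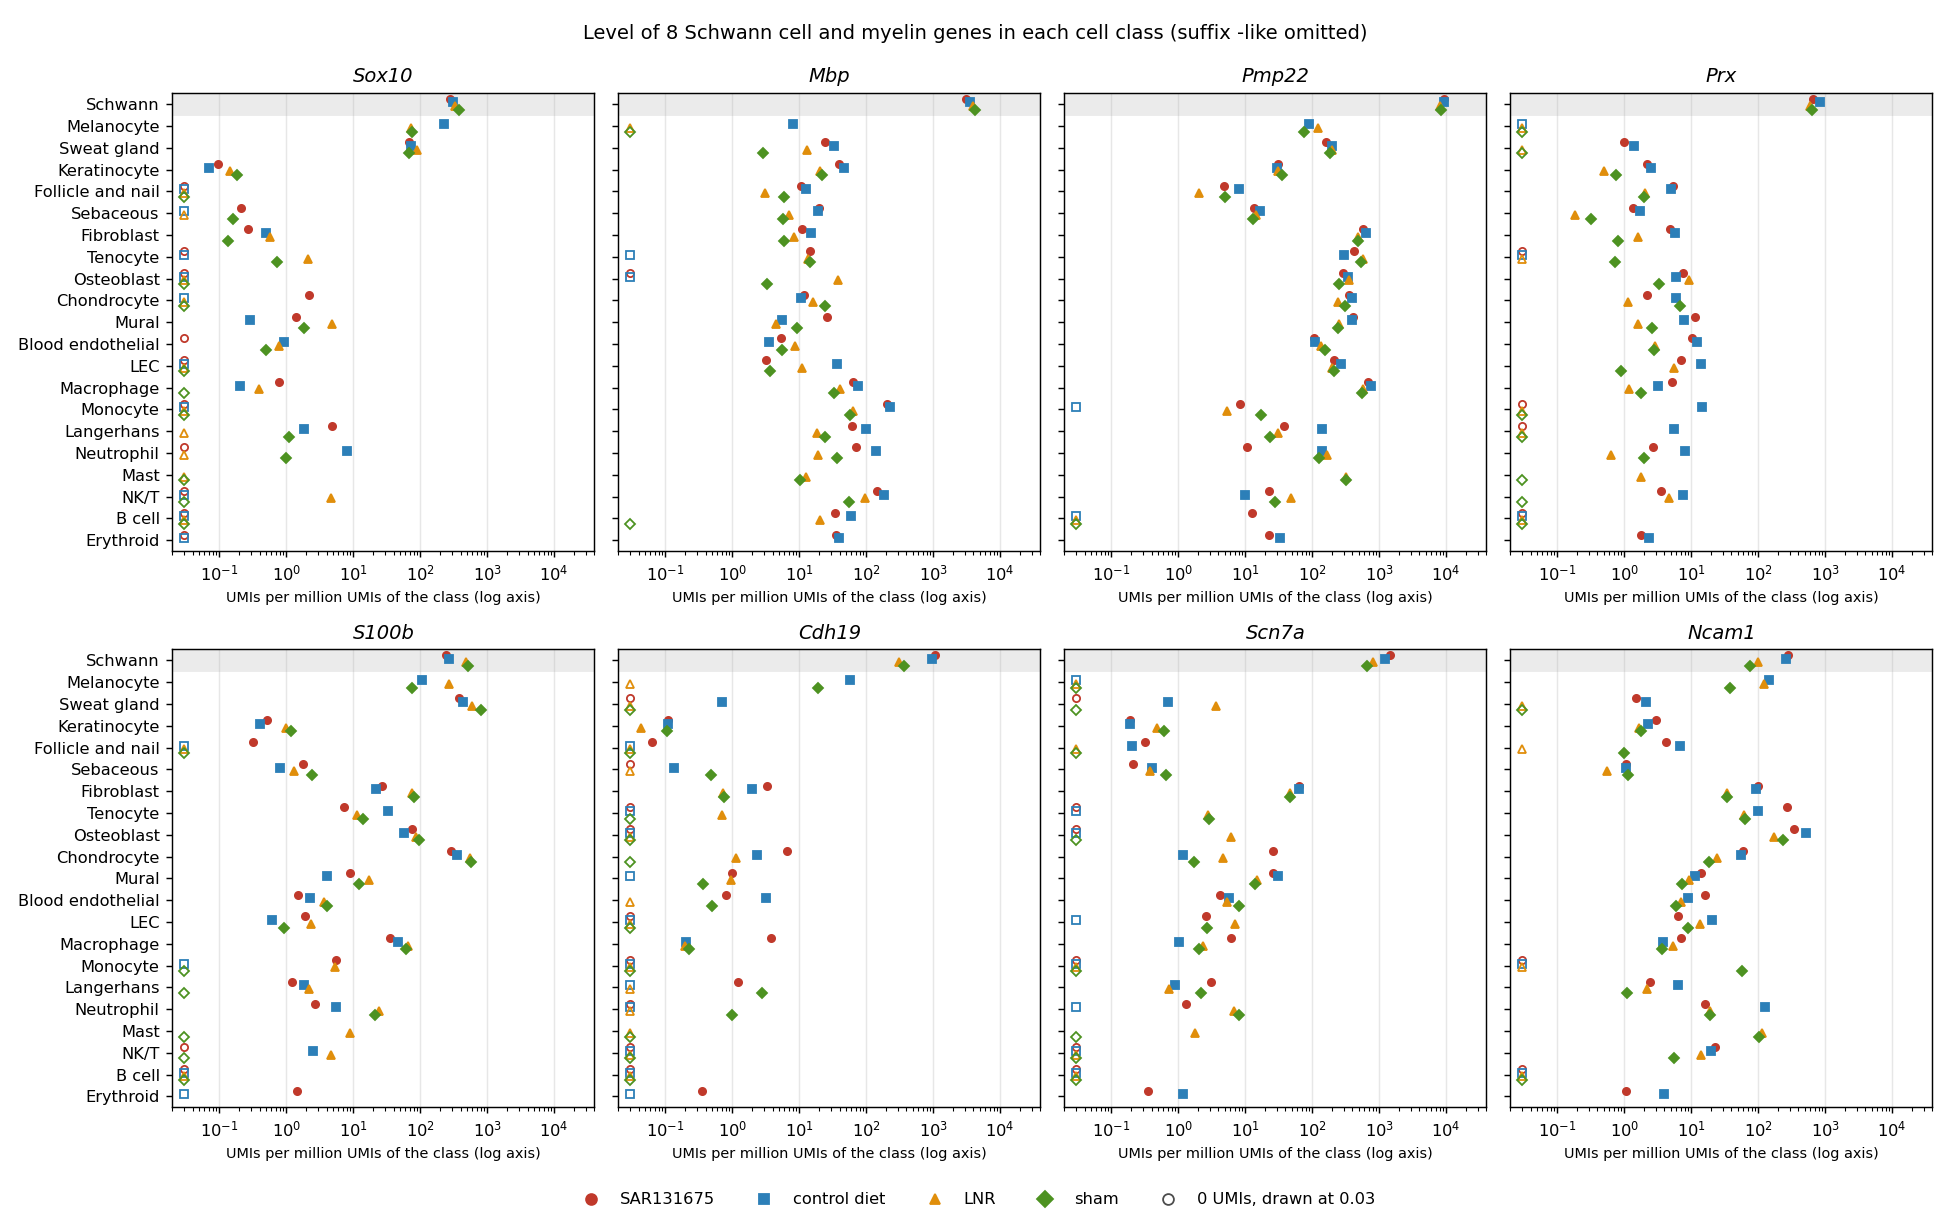
Level of each of the 8 genes in each named cell class, as CPM of the class on a log axis, with 1 point per library and open symbols at 0.03 for classes with 0 UMIs. Mbp, Pmp22, Prx, Cdh19 and Scn7a have their highest points in the shaded Schwann row, while S100b is as high or higher in sweat gland-like and chondrocyte-like cells and Ncam1 in osteoblast-like cells.

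A high level in few cells is not the same as a large share of a gene's UMIs, since keratinocyte-like and fibroblast-like cells made up most of each library. Cdh19 was the gene most held by Schwann-like cells: 79.2%, 81.1%, 59.5% and 56.7% of its UMIs in SAR131675, control diet, LNR and sham lay in them. For Sox10 the share was 53.6%, 47.7%, 33.3% and 49.2%, with 19.7% to 30.8% in sweat gland-like cells. For Prx it was 38.7% to 42.6%. Of the Mbp UMIs, 19.9% to 25.03% lay in Schwann-like cells and 46.5% to 59.6% in keratinocyte-like cells, a class with 20.4 to 47.0 CPM of Mbp but 7375 to 15887 cells per library. Fibroblast-like cells were the largest holder of Pmp22 UMIs (45.8% to 50.9%), and Schwann-like cells held 20.4% and 15.2% of them in SAR131675 and control diet and 5.36% and 5.83% in LNR and sham. Fibroblast-like cells held 56.2% to 72.1% of Scn7a UMIs and 44.4% to 65.9% of Ncam1 UMIs. Schwann-like cells held at most 9.24% of S100b UMIs and 4.65% of Ncam1 UMIs. In each library most UMIs of Mbp, Pmp22, Prx, Scn7a, S100b and Ncam1 thus lay outside the Schwann-like cells.

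**Figure D2:**
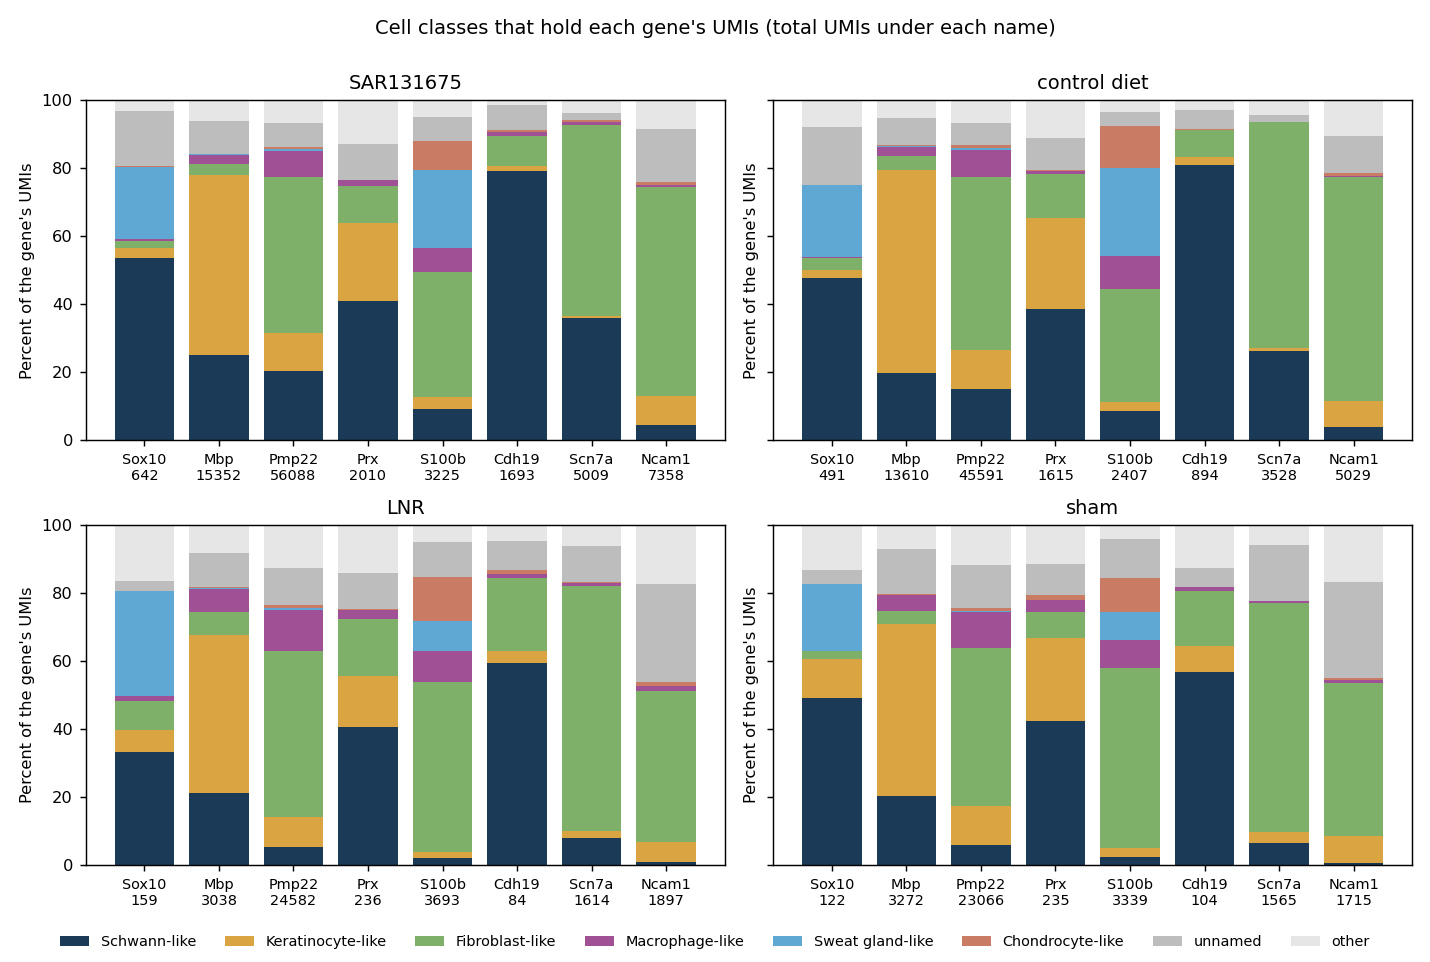
Percent of each gene's UMIs held by each cell class in each library, with the gene's total UMIs under its name. The dark Schwann-like segment reaches 81.1% for Cdh19 in control diet and stays at or under 9.24% for S100b and 4.65% for Ncam1.

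The share of Schwann-like cells with at least 1 UMI was also taken for each gene, and it did not follow the level across genes: in SAR131675 Scn7a, at 1450 CPM, was found in 45.4% of cells and Sox10, at 278 CPM, in 64.6%. Pmp22 was found in 97.7%, 96.9%, 88.5% and 89.6% of Schwann-like cells in SAR131675, control diet, LNR and sham, Mbp in 86.5%, 76.7%, 68.3% and 68.7%, and Cdh19 in 67.7%, 62.6%, 31.7% and 32.2%. In keratinocyte-like cells, which are deeper (median 12671, 12212.5, 8342 and 8036.5 UMIs), Cdh19 was found in 0.0407% to 0.126% and Sox10 in 0.0655% to 0.153%. Those keratinocyte shares are given for scale and were not tested as a measure of free RNA. Mbp was found in 15.2% to 38.5% of keratinocyte-like cells. With each cell thinned to 1500 UMIs, which left 234, 142, 38 and 37 Schwann-like cells and dropped 26, 21, 66 and 78, Mbp was found in 74.4%, 65.5%, 68.4% and 78.4% of them and Cdh19 in 52.6%, 47.9%, 36.8% and 27.0%.

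The genes were also seen together in single cells. At least 4 of the 8 had a UMI in 89.2%, 85.9%, 56.7% and 46.1% of Schwann-like cells (SAR131675, control diet, LNR, sham), and in 0.0291% to 0.141% of keratinocyte-like cells. The lower shares of the LNR and sham libraries came with their lower depth per Schwann-like cell.

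The Schwann-like cells of each pair were clustered again without the 8 genes, and they fell into a myelinating-like group, with Mag, Ncmap and Drp2, and a non-myelinating-like group, with L1cam, Ngfr and Gfra3. Each group of the diet pair joined subclusters that were named by their marker scores, although none of these had a marker of its group among its 10 leading genes. The myelinating-like group held 131, 74, 42 and 51 cells in SAR131675, control diet, LNR and sham, and the non-myelinating-like group 118, 88, 62 and 64. A further 11 cells in SAR131675 and 1 in control diet, marked by the synovial gene Prg4, stayed unnamed. One subcluster of the diet-pair non-myelinating-like group (63 and 38 cells) was led by the cartilage genes Cytl1, Col10a1 and Acan and by Runx2, and in SAR131675 its 280 Cytl1, 169 Col10a1 and 47 Acan UMIs each lay in 2 cells, while control diet had 0 of them. One subcluster of the diet-pair myelinating-like group (46 and 34 cells) was led by hemoglobin genes, and 16 and 18 of its cells held UMIs of erythroid markers. Values of the diet pair without each of these subclusters are given beside the results that turned on them. Differences between these groups are given as descriptions with counting intervals, since genes that vary with the 8 shaped the groups. Median UMIs per cell were 3457, 3873.5, 1409.5 and 1398 in the myelinating-like and 5630, 4840, 1118.5 and 1207.5 in the non-myelinating-like cells, and the summed fibroblast markers were 1334 to 1853 CPM against 4007 to 5565 CPM; their part in the differences was not tested. Summed erythroid markers reached 4908 and 14128 CPM in the myelinating-like cells of SAR131675 and control diet, against 51.5 to 421 CPM in the other groups.

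Mbp, Pmp22 and Prx lay on the myelinating side in all 4 libraries. Mbp stood at 6576, 8507, 8063 and 7993 CPM in myelinating-like cells and at 566, 412, 518 and 553 CPM in non-myelinating-like cells, log2 ratios of 3.54 to 4.37. Pmp22 stood at 19443, 20330, 15545 and 15677 CPM against 1858, 1950, 1913 and 1548 CPM, log2 ratios of 3.02 to 3.39, so non-myelinating-like cells still held more Pmp22 than any class outside the Schwann lineage. Prx was the most divided of the sheath genes: 1502, 2063, 1283 and 1287 CPM against 44.9, 25.03 and 11.5 CPM in SAR131675, control diet and LNR. In sham, 100 Prx UMIs lay in the myelinating-like and 0 in the non-myelinating-like cells, where 3 counts would be 36.9 CPM. The 2 groups did not overlap for any of these genes.

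Cdh19, Scn7a and Ncam1 lay on the non-myelinating side. Scn7a stood at 2626, 2095, 1486 and 1253 CPM in non-myelinating-like cells, and 1754, 921, 129 and 102 of its UMIs were there against 2, 1, 0 and 2 in myelinating-like cells. Ncam1 stood at 481, 412, 184 and 147 CPM against 25.3 and 37.0 CPM in SAR131675 and control diet and 0 UMIs in LNR and sham (3 counts would be 40.5 and 38.6 CPM). Cdh19 stood at 1810, 1579, 565 and 663 CPM against 173, 90.7, 13.5 and 64.4 CPM, log2 ratios of -5.39 to -3.37, with 1 and 5 UMIs behind the last 2 values of the myelinating-like group.

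Sox10 and S100b were shared by both groups. The log2 ratio of myelinating-like over non-myelinating-like cells was -0.13, -0.48, -0.85 and -0.62 for Sox10, and only in control diet did its interval (-0.89 to -0.07) leave out 0. For S100b it was 0.22, -0.04, -0.11 and -0.22, with 0 inside every interval. Without the hemoglobin-led subcluster S100b in SAR131675 was 0.52 (interval 0.15 to 0.89), and without the cartilage-led one 0.47 (interval 0.02 to 0.94), and Sox10 in control diet was then -0.48 and -0.26 with 0 inside both intervals. The 8 genes thus fell into 3 sets by group: 3 myelinating, 3 non-myelinating and 2 common to both.

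**Figure D3:**
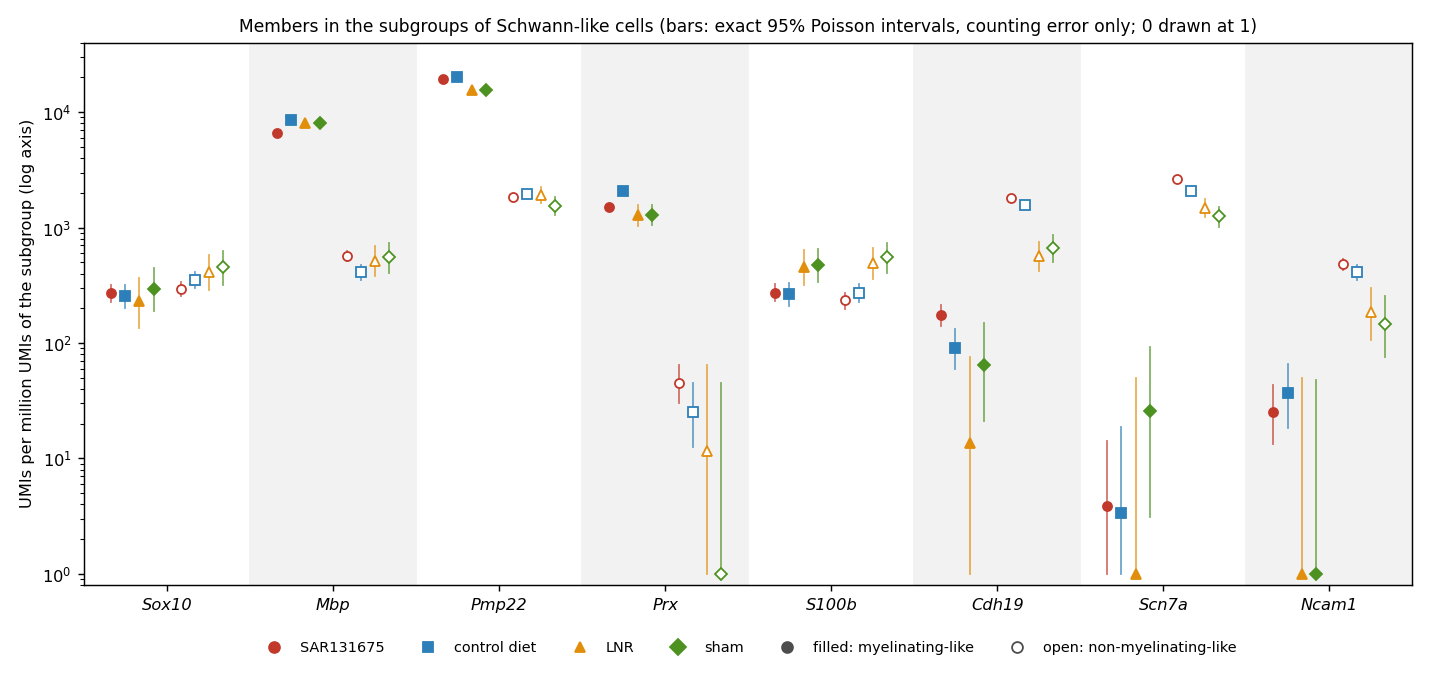
Level of each gene in myelinating-like (filled) and non-myelinating-like (open) Schwann-like cells of each library, as CPM on a log axis with exact 95% Poisson intervals for counting error and 0 drawn at 1. Mbp, Pmp22 and Prx are higher in the filled symbols, Cdh19, Scn7a and Ncam1 in the open symbols, and Sox10 and S100b lie close in both.

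Single cells showed the same division. Mbp and Prx were found together in 94.7%, 98.6%, 90.5% and 64.7% of myelinating-like cells of SAR131675, control diet, LNR and sham, and in 10.2%, 9.09%, 0% and 0% of non-myelinating-like cells. Cdh19 and Scn7a were found together in 88.1%, 84.1%, 33.9% and 31.3% of non-myelinating-like cells and in 0, 0, 0 and 1 myelinating-like cells. Prx and Scn7a, a marker of each side, met in 0, 1, 0 and 2 myelinating-like cells and in 10, 9, 0 and 0 non-myelinating-like cells. Sox10 and S100b were found together in 29.0%, 28.4%, 7.14% and 15.7% of myelinating-like and 46.6%, 48.9%, 17.7% and 20.3% of non-myelinating-like cells.

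Likeness of pattern was measured as Pearson's r of log2(CPM + 1) over the 19 or 20 named classes of a library, averaged over the 4 libraries, for 14514 genes with at least 100 UMIs in each; classes of 1 library share its depth and free RNA, so r is a description. The genes most like Prx were Pllp (0.90), Plekha4 (0.88) and Drp2 (0.86). Those most like Cdh19 were Kcna2 (0.91) and C1ql3 (0.89), and those most like Scn7a were Gm11816 (0.91), Efhd1 (0.84) and Cadm3 (0.84). Sox10 was most like Paqr6 (0.83), Rxrg (0.79) and Cadm4 (0.78). For Mbp the values were lower, with Gatm (0.71), Kcna1 (0.70) and Gm56971 (0.70). Pmp22 was most like Rhoc (0.86), Klf9 (0.83) and Nfic (0.83), S100b most like Tmem117 (0.81), Etv1 (0.78) and Cryab (0.78), and Ncam1 most like Fign (0.82), Fez1 (0.81) and Epdr1 (0.81). None of the 8 was among the 3 most like another of them. Among themselves, Scn7a with Cdh19 and Scn7a with Prx reached 0.77, and Mbp with Ncam1 only 0.03.

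The first comparison asked how the genes stood under VEGFR3 inhibition. The Schwann-like share of kept cells was higher in SAR131675 than in control diet, with a log2 ratio of 0.40 (interval 0.11 to 0.69), and over kept cells that were not keratinocyte-like it was 0.31 (interval 0.03 to 0.61). This is a difference of 2 libraries, and the spread between mice is not known. Within the Schwann-like cells, 0 of the 8 genes passed 1.5-fold in either direction, while 16.3% of the 9307 genes with at least 20 UMIs over the pair did, and the median log2 ratio was -0.07 over the 8 and -0.01 over all genes tested.

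The differences were small in both directions. Prx was lower in SAR131675, 665 against 825 CPM (log2 ratio -0.31, interval -0.46 to -0.16), and so was Mbp, 3103 against 3583 CPM (-0.21, interval -0.28 to -0.14). Scn7a was higher, 1450 against 1225 CPM (0.24, interval 0.13 to 0.36), as was Cdh19, 1083 against 957 CPM (0.18, interval 0.05 to 0.31). Taken as the mean of each cell's own CPM in place of summed UMIs, Scn7a and Cdh19 turned to -0.042 and -0.11, so their direction rested on how cells were weighted. Without the cartilage-led subcluster Scn7a was -0.011 (interval -0.19 to 0.16). Without the hemoglobin-led one Mbp was 0.0035 (interval -0.09 to 0.10) and Prx -0.06 (interval -0.27 to 0.14). These differences over all Schwann-like cells thus also rested on which subclusters were counted. Leaving out either subcluster also changed the mix of myelinating-like and non-myelinating-like cells. Within myelinating-like cells, given below, Mbp and Prx stayed lower without the hemoglobin-led subcluster. Within non-myelinating-like cells Scn7a stayed higher without the cartilage-led one. For Pmp22 (0.01), Sox10 (-0.15), S100b (-0.17) and Ncam1 (0.10) the intervals took in 0.

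The same genes were then compared within each group. Myelinating-like cells were 52.6% (interval 46.2 to 58.9) of the 2 groups in SAR131675 and 45.7% (37.8 to 53.7) in control diet, intervals that overlap. Within myelinating-like cells, where 21.9% of 6170 genes passed 1.5-fold, Mbp was 6576 against 8507 CPM (-0.37, interval -0.45 to -0.30) and Prx 1502 against 2063 CPM (-0.46, interval -0.61 to -0.30), and neither passed it. Scn7a, with 2 and 1 UMIs there, was under the UMI minimum. Of the other members Cdh19 alone passed 1.5-fold, 173 against 90.7 CPM from 89 and 27 UMIs (0.93, interval 0.30 to 1.61). The summed erythroid markers of these cells, 4908 against 14128 CPM, moved with these differences. Without the hemoglobin-led subcluster Mbp stayed at -0.37 and Prx at -0.43, while Cdh19 was 0.41 (interval -0.33 to 1.21) and no longer passed 1.5-fold.

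Within non-myelinating-like cells Mbp and Prx had log2 ratios of the opposite sign. Mbp stood at 566 against 412 CPM (0.46, interval 0.20 to 0.72) and Prx at 44.9 against 25.03 CPM from 30 and 11 UMIs (0.84, interval -0.19 to 1.99). Of the 8, only Prx passed 1.5-fold, where 21.3% of 7530 genes did, and its interval took in 0. Scn7a stood at 2626 against 2095 CPM (0.33, interval 0.21 to 0.44) and Cdh19 at 1810 against 1579 CPM (0.20, interval 0.06 to 0.33). The 5 cells with most Prx held 70.0% of its UMIs in SAR131675 and 54.5% in control diet, so few cells carried the Prx value. Without the cartilage-led subcluster Mbp was 0.22 (interval -0.13 to 0.58), which took in 0, Prx 0.95, Scn7a 0.24 and Cdh19 0.29.

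The second comparison asked the same after lymph node removal. The Schwann-like share was 0.525% in LNR and 0.556% in sham, a log2 ratio of -0.09 (interval -0.48 to 0.31). None of the 8 genes passed 1.5-fold in Schwann-like cells, where 20.1% of 2734 genes did, and the median log2 ratio was -0.07 over the 8 and 0.01 over all genes tested. Every interval took in 0: Mbp -0.07, Pmp22 -0.05, Prx -0.07, S100b -0.11, Sox10 -0.19, Cdh19 -0.25, Scn7a 0.30 and Ncam1 0.40. With the cells as named, 1.5-fold lay outside the intervals of Pmp22, Mbp, Prx and S100b and inside those of Ncam1, Sox10 (-0.76 to 0.36), Cdh19 (-0.83 to 0.31) and Scn7a (-0.09 to 0.68). The intervals were narrow for Pmp22 (-0.16 to 0.07) and Mbp (-0.23 to 0.09) and wide for Ncam1 (-0.77 to 1.61), which had 16 and 12 UMIs. Both the count and these limits rested on how cells were chosen: with cells picked by UMIs of at least 3 Schwann markers, S100b (1.25), Ncam1 (0.92) and Scn7a (0.68) passed 1.5-fold, and with cells thinned to 1500 UMIs, Scn7a (0.90) and Prx (-0.72) did. The share of all genes past 1.5-fold under these alternative choices of cells is not given here. Those counts therefore cannot be set against a background. Within the myelinating-like cells 21.1% of 1244 genes passed 1.5-fold, and within the non-myelinating-like cells 22.7% of 1440 did. None of the members with at least 20 UMIs over the pair was among them in either group: Mbp (0.01), Pmp22 (-0.01) and Prx (-0.0046, interval -0.43 to 0.42) had log2 ratios near 0 between LNR and sham in myelinating-like cells.

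**Figure D4:**
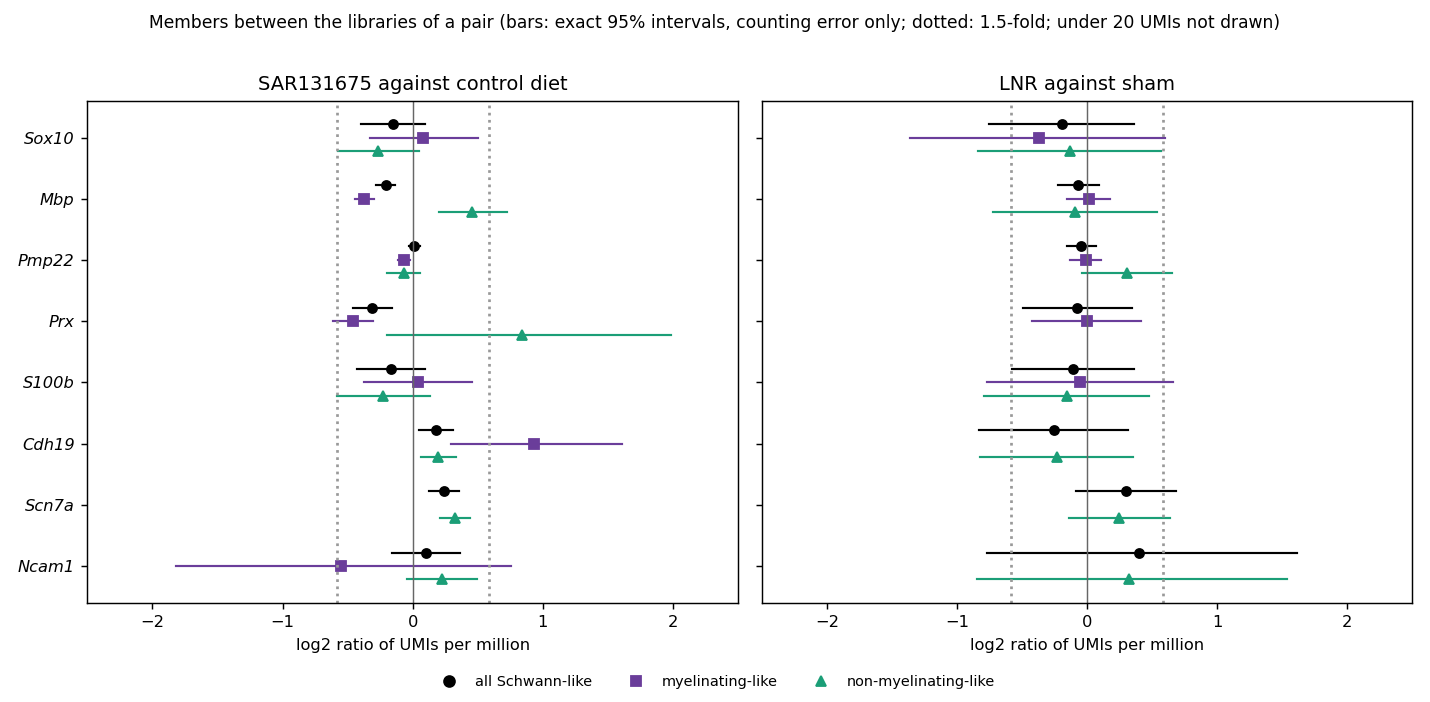
Log2 ratio of CPM between the libraries of each pair, for all Schwann-like cells and for each group of them, with exact 95% intervals for counting error, dotted lines at 1.5-fold, and genes under 20 UMIs left out. In all Schwann-like cells every point lies between the dotted lines, and only Cdh19 (0.93, myelinating-like) and Prx (0.84, non-myelinating-like) of the diet pair lie outside them.

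Other Schwann cell genes were read from fixed lists, each too short to set its count apart from the share of all genes past 1.5-fold, 16.3% in the diet pair and 20.1% in the node pair. Some listed genes, such as Mal, Cnp and Erbb3, had also been used to name the Schwann-like cells. Of 14 myelin membrane and lipid genes, such as Mag and Ncmap, 14 passed the UMI minimum in SAR131675 against control diet and 13 in LNR against sham, and none passed 1.5-fold in either. The 10 transcription factors of the lineage (9 and 5 tested) and the 7 genes of the periaxin complex and laminin receptors (7 and 6 tested) also held none past 1.5-fold. Without the cartilage-led subcluster 1 transcription factor of the diet pair, Tfap2a, was lower past 1.5-fold, and without the hemoglobin-led one Nab2 was, both named after their values were seen. Each was 1 of 9 tested, where 18.5% and 18% of all genes passed. In LNR against sham, Itgb1 had the largest rise of the latter, 659 against 478 CPM (0.46, interval 0.03 to 0.91), and Drp2 the largest fall, 684 against 937 CPM (-0.45, interval -0.82 to -0.09). None of the 5 cell division genes, such as Mki67 and Top2a, reached the minimum in either pair.

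Of the 8 lists, injury and repair had most genes past 1.5-fold in the diet pair. These were 3 of 7 tested of 12, where 16.3% of all genes passed. Runx2 and Btc were higher but changed sign without the cartilage-led subcluster, while Bdnf was lower with or without it. With that subcluster left out, where 18.5% of 8265 genes passed, none of the list was higher and 4 were lower (Btc, Bdnf, Gdnf and Ngfr). Of these, Btc and Gdnf had intervals that took in 0. That subcluster held 63 of 118 and 38 of 88 non-myelinating-like cells in SAR131675 and control diet. Leaving it out thus also changed the mix of groups, and the part of this change in these directions was not tested. Ngfr, a marker of the non-myelinating-like group, stood at 121 CPM in that group in both libraries. Runx2, a transcription factor of bone that repair Schwann cells also use, stood at 139 against 35.6 CPM (1.96, interval 1.37 to 2.61), but 160 of its 172 UMIs in SAR131675 lay in the cartilage-led subcluster, 117 of them in 1 cell, and it was found in 10.4% of SAR131675 and 11.04% of control diet Schwann-like cells. Without that subcluster Runx2 had 12 and 10 UMIs and a log2 ratio of -0.38 (interval -1.72 to 0.99). Btc, a growth factor of the EGF family, stood at 105 against 35.6 CPM (1.56, interval 0.95 to 2.21), with 36 of its 130 UMIs from 1 cell, and without that subcluster it had 17 UMIs in each library and a log2 ratio of -0.65 (interval -1.70 to 0.41). Bdnf, a neurotrophin, stood at 7.27 against 38.3 CPM (-2.40, interval -3.66 to -1.28), from 9 and 29 UMIs. The 5 cells with most Bdnf held 88.9% and 75.9% of these UMIs, without the cartilage-led subcluster the ratio was -2.73 (interval -4.76 to -1.12) from 4 and 17 UMIs, and keratinocyte-like cells held Bdnf in 15.4% and 15.9% of cells. Gdnf was next lower at -0.51 (interval -1.22 to 0.21), and at -0.78 (interval -1.73 to 0.16) without that subcluster. Jun, the regulator of the repair state, was 892 against 948 CPM (-0.09, interval -0.23 to 0.05), and -0.22 (interval -0.37 to -0.08) without the cartilage-led subcluster. Jun is also counted among the dissociation genes given below. Shh, Olig1 and Lif had 0 UMIs in both libraries.

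In LNR against sham, where 20.1% of all genes passed 1.5-fold, 1 of 3 tested genes did in each of 3 lists, too few to set apart from that share. Of the injury and repair genes it was Gap43, at 49.7 against 107 CPM from 8 and 17 UMIs (-1.10, interval -2.52 to 0.19). Of 3 tested axon to glia genes, Erbb3, the neuregulin receptor, passed it at 354 against 201 CPM (0.82, interval 0.17 to 1.49). Erbb3 was also among the markers that named the Schwann-like cells, so it was read in cells chosen partly by it. Of 3 tested genes of nodes and axon contact, L1cam passed it at 249 against 163 CPM (0.61, interval -0.14 to 1.38). In SAR131675 against control diet, where 16.3% of all genes passed, none of the 5 tested axon to glia genes and none of the 5 of nodes and axon contact did. Of 6 dissociation genes, 1 passed in each pair, a share near that of all genes: Fosb was lower in SAR131675 (-0.78) and Hspa1a higher in LNR (0.59), and their summed level in Schwann-like cells was 6714, 7862, 8356 and 8668 CPM in SAR131675, control diet, LNR and sham; its part in the results was not tested.

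In the diet pair, 39 and 19 further cells of the Schwann cluster stayed unnamed because their keratinocyte marker score came close to their Schwann marker score, and they were deeper than the Schwann-like cells, with medians of 13666 and 11594 UMIs. They held Mbp at 1071 and 1859 CPM and Pmp22 at 3264 and 5042 CPM in SAR131675 and control diet, and Cdh19 at 261 and 233 CPM. These levels lay under those of the Schwann-like cells and over those of every other named class of at least 10 cells.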

How the data were processed

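The authors deposited 1 matrix of raw UMI counts per library, made with Cell Ranger from 10x libraries of pooled digits; the submitters' processing notes name Cell Ranger 6.1.2 and the GRCm39 build, while the file headers name 8.0.1 for the diet pair and 6.1.2 for the node pair. No removal of doublets or free RNA is stated. Cells with 200 to 5500 genes, at most 30000 UMIs and at most 10% mitochondrial UMIs were kept. The study's methods give these limits for the LNR experiment, and here they were applied to both pairs. Each pair was clustered together (2000 variable genes, 30 principal components, 20 neighbours, Leiden resolution 0.7) without the 8 genes, using numpy 2.4.6, scipy 1.17.1, scanpy 1.11.5 and leidenalg 0.10.2. Classes were named from fixed markers, with a marker score of at least 0.3, no other class at 0.75 of it or more, and at least 3 markers in at least 5% of cells; unnamed and Schwann-like clusters of at least 50 cells were clustered again. The score's denominator floor (0.1), the second clustering of unnamed clusters and the need for 1 own marker among a subcluster's 10 leading genes were set after cluster names, but before levels of the 8 genes, had been seen. That need was not applied to the groups within the Schwann-like cells. UMIs were summed per class and library and divided by the class total to give CPM. Intervals are exact Poisson for levels, exact Clopper-Pearson for shares and exact conditional for ratios, at 95%; PCR and capture error and the spread between mice are not in them. No test or p-value was made, since each condition has 1 library. Genes with at least 20 UMIs over a pair were compared, and called means past 1.5-fold. Scrublet marked 4.67%, 0.907%, 7.41% and 6.97% of kept cells as doublets in SAR131675, control diet, LNR and sham, against assumed rates of 23.3%, 19.2%, 15.9% and 16.5%. None of those marked was Schwann-like, which does not show that no doublet was, and they were left in. The steps that compare gene sums and give ratio intervals were tested on simulated Poisson counts without spread between cells. Clustering, naming and thinning were not tested in this way. The 8 genes and the lists were chosen with earlier results of these data known. Named were all 8 genes, class markers, from the lists, the dissociation genes left out, the 2 genes with the largest rise and the 2 with the largest fall per pair (other list genes were named after their values were seen), and the 3 genes most like each of the 8. Some of the genes this names are not reported here. Promoter sequences are from a RefSeq table on GRCm38.p6, and coordinates of the counted genes were not used here.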

Additional observations from a re-analysis of the deposited data

Results flagged for a closer look

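In 3 results the pairs moved in opposite directions, and with 1 library per condition the difference between the pairs was not tested. The Schwann-like share of kept cells had a log2 ratio of 0.40 for SAR131675 over control diet and -0.09 for LNR over sham, a gap of 0.48. With cells chosen by at least 3 Schwann markers, or thinned to 1500 UMIs, the second value was 0.10 and 0.09, the same sign as in the diet pair. The level of Cdh19 in Schwann-like cells had log2 ratios of 0.18 and -0.25, a gap of 0.43, and the second value rested on 50 and 59 UMIs with an interval that took in 0. With the mean of each cell's CPM the first was -0.11, so the signs were then alike. Pmp22 had log2 ratios of 0.01 and -0.05, a gap of 0.057, and both intervals took in 0. The pairs also differed in depth and in the software version of their headers.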

How the results depend on the processing

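No paired analysis was possible because each condition has 1 library, and no replicate could be left out. The log2 ratio of the Schwann-like share stayed between 0.31 and 0.46 for SAR131675 over control diet under 12 alternatives. For LNR over sham it ran from -0.18 to 0.10 under 8, above 0 when cells were chosen by UMIs of at least 3 Schwann markers (0.10) and when every cell was thinned to 1500 UMIs (0.09). The number of the 8 genes past 1.5-fold stayed at 0 in the diet pair under 13 alternatives. In the node pair it was 3 with cells chosen by at least 3 Schwann markers (S100b 1.25, Ncam1 0.92, Scn7a 0.68), 2 of the genes over the minimum with thinned cells (Scn7a 0.90, Prx -0.72), and 0 under the other 7. For the 3-marker and thinned cells the share of all genes past 1.5-fold is not given, so these counts have no background beside them. With the mean of each cell's CPM, Cdh19 (-0.11) and Scn7a (-0.042) changed sign in SAR131675 against control diet, as did Scn7a (-0.011) without the subcluster led by cartilage genes and Mbp (0.0035) without the one led by hemoglobin genes. Of the list genes, Runx2 (-0.38) and Btc (-0.65) changed sign without the cartilage-led subcluster. The cause was not tested. Of the other log2 ratios of the 8 genes, 82 of the diet pair and 54 of the node pair stayed within their counting interval and 10 in each pair moved beyond it. Of the ratios between the myelinating-like and non-myelinating-like groups 104 stayed and 9 moved, and of the diet-pair ratios within the myelinating-like group 25 stayed and 1 moved, and within the non-myelinating-like group 27 and 4. The share of a gene's UMIs held by Schwann-like cells stayed in 159 cases and moved in 129. Removing shared barcodes, counting the unnamed subcluster of the Schwann cluster, leaving out cells with synovial genes, leaving out the 2 subclusters led by cartilage or hemoglobin genes, and the alternatives for the groups were chosen after seeing the data. In the node pair Ncam1, Cdh19 and Sox10 rested on few UMIs in Schwann-like cells, 12 to 60 per library.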
